A study of Mus musculus with 12 samples.

Results

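The 4 mature miRNAs described here are the 2 arms of the miR-223 hairpin, miR-223-3p and miR-223-5p, and the 2 arms of the miR-142a hairpin, miR-142a-3p and miR-142a-5p. They were chosen by name, with their values in DSS and control mice already known, and all 4 were found among the 1978 miRNA rows of the count table, where they are listed as mmu-mir-223-3p, mmu-mir-223-5p, mmu-mir-142a-3p and mmu-mir-142a-5p. The libraries are small RNA-seq of colon and blood from 6 male C57BL/6 mice aged 8 weeks, which gave 12 libraries with 1 of each tissue per mouse. Mice 1, 7 and 9 had drunk dextran sulfate sodium (DSS, 1.5% in water for 7 days), a polymer that damages the colonic epithelium and causes colitis, and were sacrificed on day 8. Mice 2, 4 and 8 were the controls without DSS. The 6 mice had been selected from a larger set by their disease activity.

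The assignment of mice to DSS and control follows the mouse numbers in the study's own heatmaps. The disease state fields of the submission give another split, with mice 1, 2 and 4 as colitis and mice 7, 8 and 9 as control, and its tissue fields name the opposite tissue for each library title. The tissue of the titles was checked against markers. The 8 epithelial miRNAs (the miR-200 family, miR-192, miR-194 and miR-215) summed to between 52896 and 195315 counts-per-million (CPM) in the libraries titled colon and to between 943 and 1310 CPM in those titled blood, while the 4 erythroid miRNAs (miR-451a, miR-144 and miR-486a) summed to at most 2571 CPM in the former and at least 287237 CPM in the latter. The direction of every DSS comparison rests on the mouse numbers. The libraries held 15060553 to 20106226 counts in colon and 21127134 to 32944792 in blood, where miR-486 entries took 74.8% to 83.0% of the counts. Identical mature sequences are listed, and counted, under more than 1 entry. This holds for miR-486, so its share counts some reads more than once, but none of the 4 arms is affected.

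A miRNA hairpin is cut by Dicer into a duplex with a 5p and a 3p strand, and Argonaute keeps 1 of them as the guide that represses mRNAs through its seed. miR-223 is a classical myeloid miRNA, abundant in neutrophils and monocytes, where it restrains granulocyte activation and inflammasome signalling. miR-142 is made in nearly all haematopoietic lineages, lymphocytes included, so it marks leukocytes and not myeloid cells alone. These are bulk libraries, in which fewer cells of a type and less RNA per cell cannot be told apart.

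The mature sequences below are printed because the results turn on the 2 arms of each hairpin, which are different guides. They are given 5′ to 3′ with the seed (bases 2 to 8) in capitals. The sequences in the count table equalled those of RefSeq (GRCm38.p6) for 4 of 4 arms, and no other entry of the table shared a sequence or a seed with any of them.
miR-223-3p: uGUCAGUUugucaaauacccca
miR-223-5p: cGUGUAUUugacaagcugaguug
miR-142a-3p: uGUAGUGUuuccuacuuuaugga
miR-142a-5p: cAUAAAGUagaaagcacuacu

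The arms are 21 to 23 bases long. Both 3p arms start with U and both 5p arms with C. Among the first 4 bases, A or U fill 2 positions in miR-223-3p, 1 in miR-223-5p and 3 in each miR-142a arm. The seeds of the 4 arms all differ, so a switch of arm in either hairpin replaces the sequence that selects targets.

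The hairpins are shown with both mature arms in capitals. Mir223 is on the plus strand at chrX:96242817-96242926 (GRCm38), within an exon of the non-coding gene F630028O10Rik and 4277 bases from the nearest protein-coding gene, Vsig4. Mir142 is on the plus strand at chr11:87756864-87756927, in an intron of its host non-coding RNA Mir142hg and 3614 bases from Tspoap1.
Mir223: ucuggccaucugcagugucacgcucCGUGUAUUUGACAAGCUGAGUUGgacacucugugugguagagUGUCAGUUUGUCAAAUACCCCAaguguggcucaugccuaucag
Mir142: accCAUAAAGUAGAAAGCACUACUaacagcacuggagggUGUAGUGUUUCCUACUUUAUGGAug

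An antisense hairpin, Mir142b, overlaps Mir142 on the minus strand (chr11:87756841-87756955). Its mature miR-142b is the reverse complement of 20 bases of miR-142a-3p. It had 0 to 10 counts per library and 34 in all 12, against 140 to 1893 counts per library for miR-142a-3p.

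In the colon, the 4 arms had higher mean levels in DSS mice than in controls. Both miR-223 arms were called, where 5.9% of all miRNAs tested were called higher, and these calls were lost when some mice were left out. The level of miR-223-3p was 19.0, 26.8 and 57.9 CPM in DSS mice 1, 7 and 9, against 9.66, 9.42 and 8.15 CPM in control mice 2, 4 and 8. The level of miR-223-5p was 44.9, 45.5 and 66.3 CPM in DSS colons and 14.7, 14.9 and 14.9 CPM in the controls. Every DSS colon was above every control colon for both arms, and the 3 controls lay close together for miR-223-5p. The log2 fold change was 1.93 (SE 0.41) for miR-223-3p and 1.82 (SE 0.20) for miR-223-5p, ranks 3 and 5 from the top of the 542 miRNAs tested.

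The miR-142a arms in colon differed by less. The level of miR-142a-3p was 21.5, 30.2 and 73.3 CPM in DSS mice 1, 7 and 9, and 15.3, 15.8 and 10.2 CPM in control mice 2, 4 and 8. For miR-142a-5p, the more abundant arm, the values were 283, 427 and 925 CPM in the DSS mice and 214, 339 and 241 CPM in the controls. The groups did not overlap for the 3p arm, and they did for the 5p arm, where DSS mouse 1 was below control mouse 4. The log2 fold changes were 1.60 (SE 0.47) for miR-142a-3p and 1.04 (SE 0.43) for miR-142a-5p.

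DSS mouse 9 had the highest colon level of each of the 4 arms. Without it the log2 fold change in colon was 1.33 for miR-223-3p, 1.61 for miR-223-5p, 0.91 for miR-142a-3p and 0.42 for miR-142a-5p. The plot of levels by library shows this animal apart from DSS mice 1 and 7 in the colon panels.

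**Figure D1:**
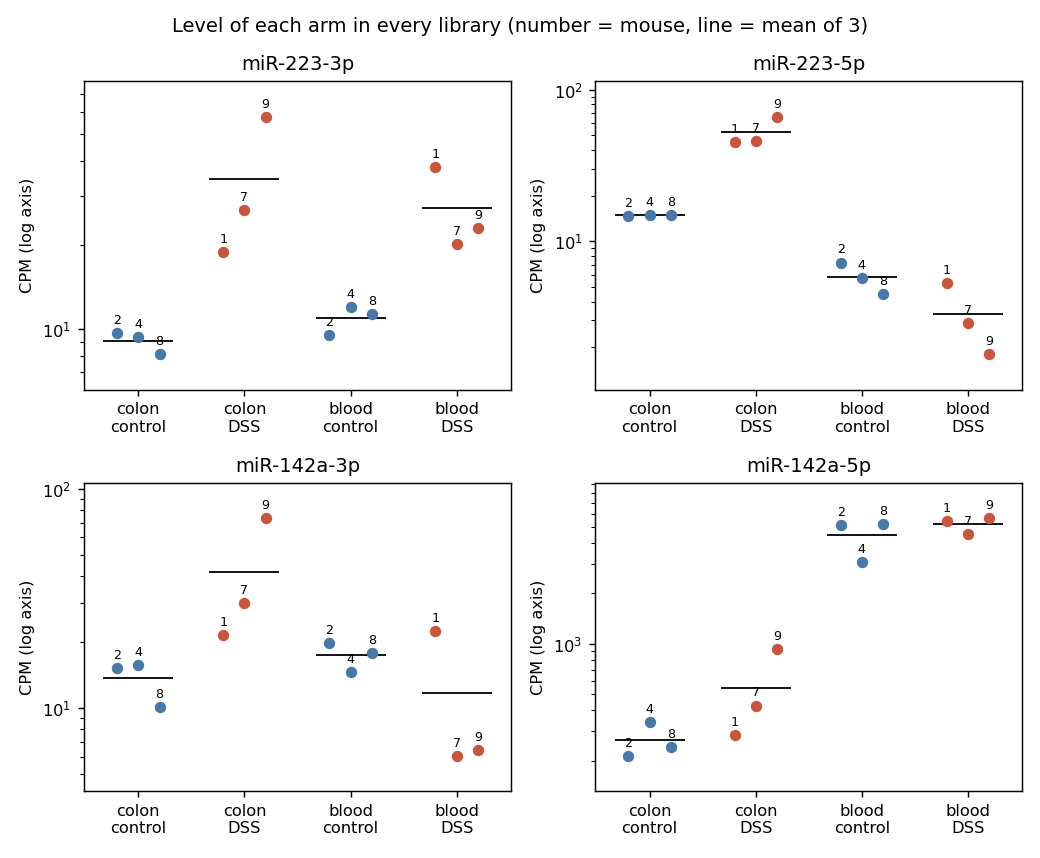
Level of each arm (vertical axis, CPM scaled within the tissue, log axis) in every library, grouped by tissue and treatment; each point is 1 library with its mouse number, blue for control and red for DSS, and the line is the mean of 3. Colon levels of miR-223-5p lay at 44.9 to 66.3 CPM in DSS and 14.7 to 14.9 CPM in control mice, while in blood the DSS mean (3.31 CPM) was below the control mean (5.80 CPM).

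In colon, 2 of the 4 arms were called by edgeR's quasi-likelihood test, which required a fold change above 1.5 and an adjusted p no higher than 0.05, where 10.1% of all miRNAs tested were called in either direction and 5.9% as higher. The groups did not overlap for 3 of the 4 arms, with DSS higher, as for 22.5% of all miRNAs. The members were chosen with this comparison known, so nothing is read from these counts. When control mouse 2, 4 or 8 or DSS mouse 7 was left out, 0 arms and 0 of all miRNAs were called, while the log2 fold changes stayed at 1.84 to 2.08 for miR-223-3p and 1.79 to 1.90 for miR-223-5p. Without DSS mouse 1, 3 arms were called. Under the grouping of the disease state fields 0 arms and 0 of the 542 miRNAs were called.

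Other miRNAs of inflammatory and tissue cells are given for the same colons as a description. Their lists were chosen with earlier results of these data known, so nothing is read from the counts called in them. Of the 8 myeloid activation miRNAs tested, 3 were called, where 5.9% of all miRNAs tested were called higher, and these were higher in DSS: miR-155-5p, induced in activated macrophages and lymphocytes, at a log2 fold change of 1.29, miR-511-5p, from the gene of the macrophage mannose receptor, at 1.08, and miR-146a-5p, an NF-κB-induced brake on Toll-like receptor signalling, at 0.83. The median log2 fold change of this list was 0.84, against 0.04 over all miRNAs, and 1 of the 8, miR-147-3p, had a negative value (-0.39, SE 0.32). The summed level of its 9 members was 48865 to 79743 CPM in DSS and 36934 to 41552 CPM in control mice, and miR-155-3p had a library at 0. None of the 6 lymphocyte miRNAs was called (median 0.42), and their sum overlapped between the groups (2135 to 2514 CPM and 2148 to 2541 CPM).

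Epithelial miRNAs differed the other way. Of 8 tested, 4 were called lower in DSS (miR-141-3p, miR-429-3p, miR-192-5p and miR-194-5p), where 4.24% of all miRNAs tested were called lower, and the sum of the list was 52896 to 121841 CPM in DSS against 155668 to 195315 CPM in control mice. Mouse 9, with the highest level of the 4 arms, also had the lowest epithelial sum and the highest myeloid activation sum. The part of a changed share of epithelium in the levels of the miR-223 and miR-142a arms was not tested. The 2 arms of miR-126a, of endothelium and platelets, summed to 6860 to 7339 CPM in DSS and 5144 to 5558 CPM in control colons. Neither was called (log2 fold changes 0.41 for 3p and 0.46 for 5p), and 22.5% of all miRNAs were higher in DSS colons without overlap. The erythroid and smooth muscle sums overlapped between the groups.

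In blood, edgeR's quasi-likelihood test called none of the 4 arms, and the values of the miR-223 arms are given as a description. The level of miR-223-3p was 38.3, 20.3 and 23.2 CPM in DSS mice 1, 7 and 9, against 9.52, 12.03 and 11.4 CPM in control mice 2, 4 and 8, with no overlap. The level of miR-223-5p was 5.26, 2.87 and 1.80 CPM in DSS blood and 7.23, 5.70 and 4.48 CPM in the controls. Here the groups overlapped, since DSS mouse 1 was above control mouse 8, and all 3 DSS mice were below the control mean with this scaling within the tissue. Scaled over all 12 libraries, DSS mouse 1 was the highest blood library (8.75 CPM), against 7.92, 5.95 and 6.33 CPM in control mice 2, 4 and 8. The log2 fold change was 1.31 (SE 0.29) for the 3p arm and -0.80 (SE 0.40) for the 5p arm.

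For miR-142a-3p in blood the values were 22.5, 6.06 and 6.46 CPM in DSS mice 1, 7 and 9 and 19.9, 14.6 and 17.9 CPM in control mice 2, 4 and 8. DSS mouse 1 was the highest of the 6 and the other two DSS mice the lowest, and without mouse 1 the log2 fold change went from -0.58 (SE 0.49) to -1.42. For miR-142a-5p the values were 5409, 4552 and 5628 CPM in the DSS mice and 5154, 3083 and 5182 CPM in the controls, a log2 fold change of 0.22 (SE 0.26) with overlapping groups.

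Over all miRNAs, edgeR's quasi-likelihood test called 0.0% of the 484 tested in blood. At an unadjusted p under 0.05 there were 56 miRNAs. The DESeq2 Wald test called 10 miRNAs and edgeR without a filter on low counts called 25, and miR-223-3p was called in both. The groups did not overlap for 1 of the 4 arms, miR-223-3p, with DSS higher, as for 7.44% of all miRNAs.

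**Figure D2:**
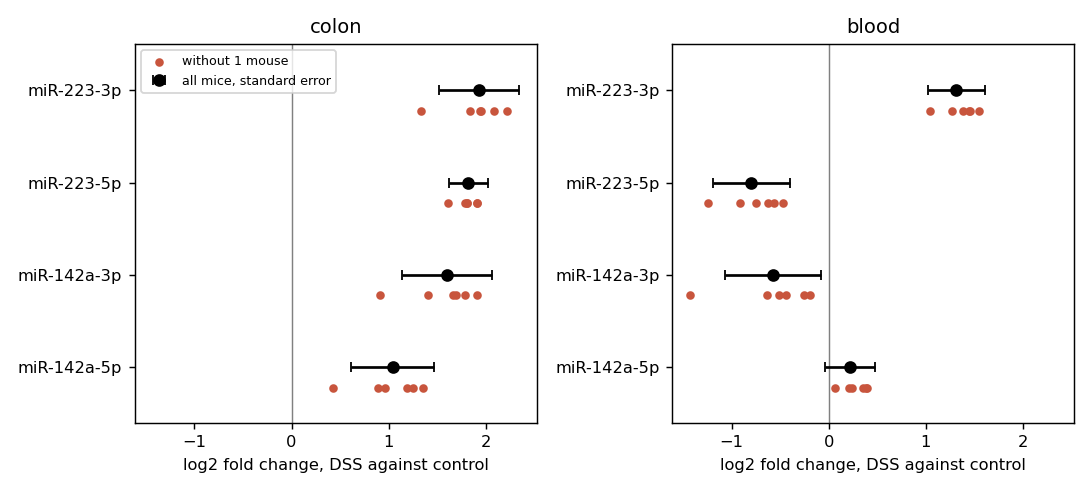
Log2 fold change of DSS against control mice (horizontal axis) for each arm in colon (left) and blood (right); black points with bars are the value over 6 libraries and its standard error, and red points the values when 1 mouse is left out. In blood the point of miR-223-3p is at 1.31 and that of miR-223-5p at -0.80; in colon the leftmost red point of each arm is the value without mouse 9.

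The ratio of the 2 arms within a library does not depend on how libraries are scaled. In colon, the 3p arm was the minor arm of miR-223 in all 6 libraries. It made up 29.7%, 37.1% and 46.6% of the counts of both arms in DSS mice 1, 7 and 9, and 39.6%, 38.8% and 35.3% in control mice 2, 4 and 8. These shares rest on 366 to 3210 counts per library, and the widest 95% Wilson interval, in control mouse 2, was 34.7% to 44.7%. The intervals cover counting error only. The mean log2 ratio of 3p to 5p differed between DSS and control colons by -0.02, so both arms were higher in DSS by nearly the same factor, with overlapping groups.

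In blood, miR-223-3p was the major arm in all 6 libraries, and more so in DSS mice. Its share was 87.9%, 87.6% and 92.8% in DSS mice 1, 7 and 9, against 56.8%, 67.9% and 71.7% in control mice 2, 4 and 8. The lowest DSS interval (85.0% to 89.8%, mouse 7) began above the highest control interval (67.5% to 75.6%, mouse 8). The ratio of 3p to 5p counts ran from 7.07 to 12.9 in DSS and from 1.32 to 2.54 in control mice. The mean log2 ratio was 3.11 ± 0.48 (SD, n = 3) in DSS and 0.94 ± 0.49 (SD, n = 3) in control mice, a difference of 2.18, or a factor of 4.52. The 2 arms together summed to 30.5 CPM in DSS and 16.8 CPM in control blood.

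This difference was rank 2 by size among 106 hairpins with both arms counted in blood, whose median size was 0.35. DSS and control blood did not overlap, with DSS higher, for 13.2% of those hairpins. As miR-223 was chosen with its DSS values known, no test is given. With any single mouse left out it was 1.90 to 2.38, while the grouping of the disease state fields gave -1.16. The marker sums that separated DSS from control blood without overlap were miR-126a (13.4 to 16.3 CPM against 31.0 to 57.3 CPM), the lymphocyte list (327 to 361 CPM against 226 to 311 CPM) and the epithelial list (943 to 1109 CPM against 1112 to 1310 CPM). The epithelial gap was narrow, and only 1 of the 2 miR-126a arms passed the filter on low counts in blood. In the lymphocyte list, miR-150-5p (log2 fold change -0.11) and miR-342-5p (-0.27) were lower in DSS and the other members higher, up to 0.63 for miR-181a-5p. Of single miRNAs, 7.44% were higher in DSS blood without overlap. With 3 mice a group, nothing is read from these separations. Myeloid activation, erythroid and smooth muscle sums overlapped, no member of any list was called, and the myeloid activation members miR-155-3p and miR-511-3p had libraries at 0. Their part in the ratio was not tested.

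For miR-142a, the 5p arm was the major arm in all 12 libraries. In colon the 3p share was 7.06%, 6.59% and 7.34% in DSS mice 1, 7 and 9 and 6.66%, 4.44% and 4.04% in control mice 2, 4 and 8. In blood it was 0.413%, 0.133% and 0.115% in the DSS mice and 0.384%, 0.472% and 0.344% in the controls. DSS mice 7 and 9 had the lowest shares in blood, and DSS mouse 1 lay among the controls. The log2 ratio of 3p to 5p differed between DSS and control mice by 0.53 in colon and by -1.10 in blood, with overlapping groups in both. Thus the 3p share of miR-223 in blood was higher in all 3 DSS mice than in any control, and that of miR-142a was lower than in any control in 2 of 3.

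**Figure D3:**
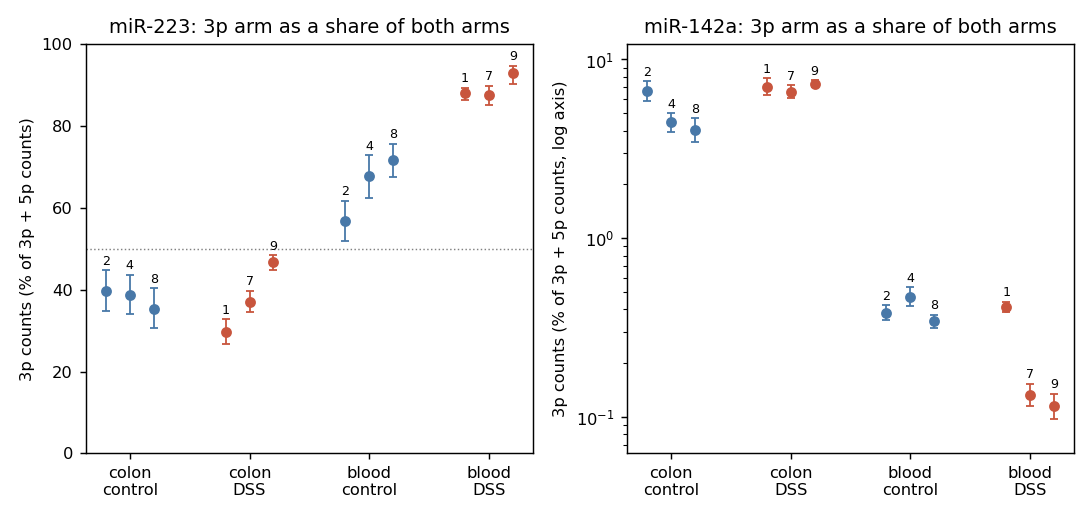
Counts of the 3p arm as a percentage of the counts of both arms (vertical axis) for miR-223 (left, linear axis with a dotted line at equal arms) and miR-142a (right, log axis) in each library, labelled by mouse; bars are 95% Wilson intervals, blue is control and red is DSS. The miR-223 points lie below the line in all colons and above it in all blood libraries, highest in the 3 DSS bloods (87.6% to 92.8%).

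The comparison of blood with colon, which was not used to choose the arms, asked whether the tissues differ in the arm they contain. The log2 ratio of miR-223-3p to miR-223-5p was -0.72 ± 0.34 (SD, n = 6) in colon and 2.03 ± 1.27 (SD, n = 6) in blood. The difference was 2.75, with no overlap (two-sided exact permutation test over the 12 libraries, p = 0.00216, the smallest it can give, and 0.00461 after Benjamini-Hochberg adjustment over 83 hairpins). For miR-142a the log2 ratio was -4.00 ± 0.39 in colon and -8.52 ± 0.89 in blood, a difference of -4.52 with the same exact permutation p and adjusted p. The ratio was higher in blood in 6 of 6 mice for miR-223 and lower in 6 of 6 for miR-142a.

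A difference in arm ratio between the tissues was common, with 69.9% of the 83 hairpins called by the test over 12 libraries, which ignores pairing, and 47.0% without overlap. The size of the difference was rank 4 for miR-142a and rank 13 for miR-223. Fewer hairpins had a different leading arm in blood than in colon, namely 7 of 83 (8.43%), and miR-223 was among them. The others were miR-132, miR-181c, miR-1934, miR-296, miR-434 and miR-503. Paired within mice, the exact sign-flip permutation test gave an adjusted p of 0.0552 for both hairpins, from p = 0.0312, the smallest that 6 mice allow. It thus called none of the 83 hairpins. In control mice alone the difference was 1.65 for miR-223 and -3.71 for miR-142a, and in DSS mice alone 3.85 and -5.34. With 3 libraries a tissue the exact permutation test cannot go below 0.1. Blood and colon RNA were isolated with different kits, so tissue and kit cannot be told apart.

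**Figure D4:**
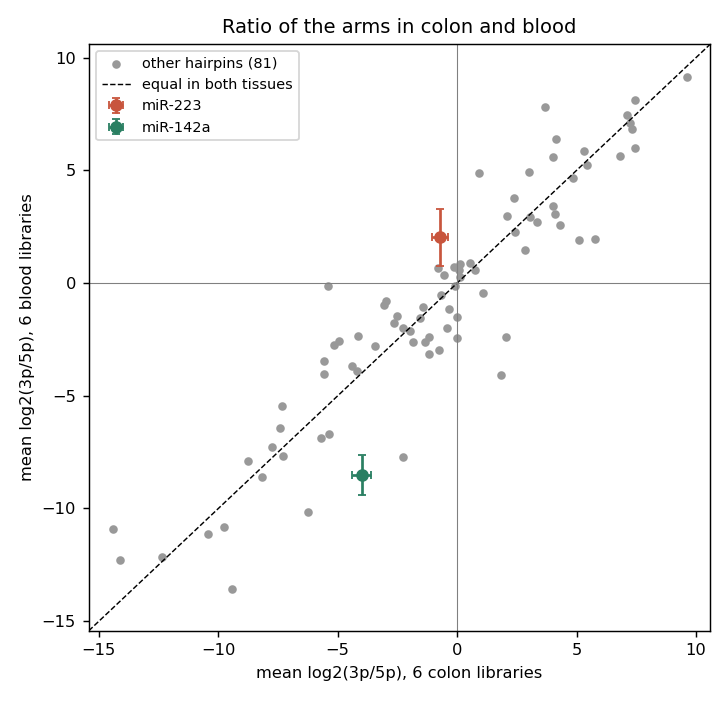
Mean log2 ratio of 3p to 5p counts in 6 colon (horizontal axis) and 6 blood libraries (vertical axis) for 83 hairpins; grey points are the other hairpins, coloured points miR-223 and miR-142a with bars of 1 SD, and the dashed line marks equal ratios. miR-223 lies above the line, negative in colon and positive in blood, and miR-142a lies below it, negative in both.

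The 4 arms also differed in where they were abundant. Scaled over all 12 libraries, miR-142a-5p averaged 311 CPM (range 170 to 700) in the 6 colons and 6425 CPM (range 3216 to 8996) in the 6 bloods, without overlap. The log2 fold change of blood over colon was 4.43 (SE 0.32, adjusted p = 3.06e-09 by edgeR's quasi-likelihood test). The level of miR-223-5p ran the other way, with a mean of 25.7 CPM (range 11.5 to 50.1) in colon and 5.90 CPM (range 2.04 to 8.75) in blood, at a log2 fold change of -1.88 (SE 0.29, edgeR adjusted p = 1.85e-05). It was -0.78 in control mice alone and -2.87 in DSS mice alone, a difference that was not tested because the arm was chosen with its DSS values known.

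The levels of the 2 other arms overlapped between the tissues. The mean level of miR-223-3p was 16.7 CPM (range 6.30 to 43.8) in colon and 26.7 CPM (range 10.4 to 63.6) in blood, at a log2 fold change of 0.74 (SE 0.30, edgeR adjusted p = 0.0286), and it was not called with mouse as a block (0.70, edgeR adjusted p = 0.0618). The call was also lost without mouse 1 (0.34), 4 (0.75), 7 (0.73) or 8 (0.44), with no filter (0.50) and in DSS mice alone (0.72). The mean level of miR-142a-3p was 21.2 CPM (range 7.85 to 55.4) in colon and 19.4 CPM (range 7.32 to 37.3) in blood, with a fitted log2 fold change of 0.06 (SE 0.40, edgeR adjusted p = 0.879). The fit averages the groups on the log scale, so its sign can differ from that of the difference between mean CPM. For miR-142a-3p this value averaged unlike animals, since it was 0.95 in control mice alone (edgeR adjusted p = 0.0126), -0.76 in DSS mice alone (edgeR adjusted p = 0.221) and -0.66 without mouse 1 (edgeR adjusted p = 0.0342). In blood, the levels thus ran from miR-142a-5p, far above the others, through miR-223-3p and miR-142a-3p, whose ranges overlapped, to miR-223-5p, whose highest library was above the lowest of miR-142a-3p. The order of the middle pair differed between the groups, as miR-142a-3p was above miR-223-3p in the 3 control bloods and below it in the 3 DSS bloods. In colon, miR-142a-5p was again above the other 3 arms, whose ranges overlapped.

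Between tissues, 88.7% of the 680 miRNAs tested were called, 37.6% as higher and 51.0% as lower in blood, so a call alone sets the 3 called arms apart little. All miRNAs together had a median log2 fold change of -0.86, and relative to it miR-142a-5p was at 5.29, miR-223-3p at 1.60, miR-142a-3p at 0.92 and miR-223-5p at -1.02. That median depends on the scaling. It was -1.59 when libraries were scaled by total counts alone, 0.33 by upper quartiles and 0.65 by total counts without miR-486 and miR-451a. The sign of miR-223-3p turned under total counts (-0.039) and that of miR-142a-3p as well (-0.71), whereas miR-142a-5p was called higher in blood under each of the 5 scalings plotted. The value of miR-223-5p was negative in all 5, but it was -0.71 with upper-quartile factors and -0.41 (edgeR adjusted p = 0.169, not called) with total counts without miR-486 and miR-451a.

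**Figure D5:**
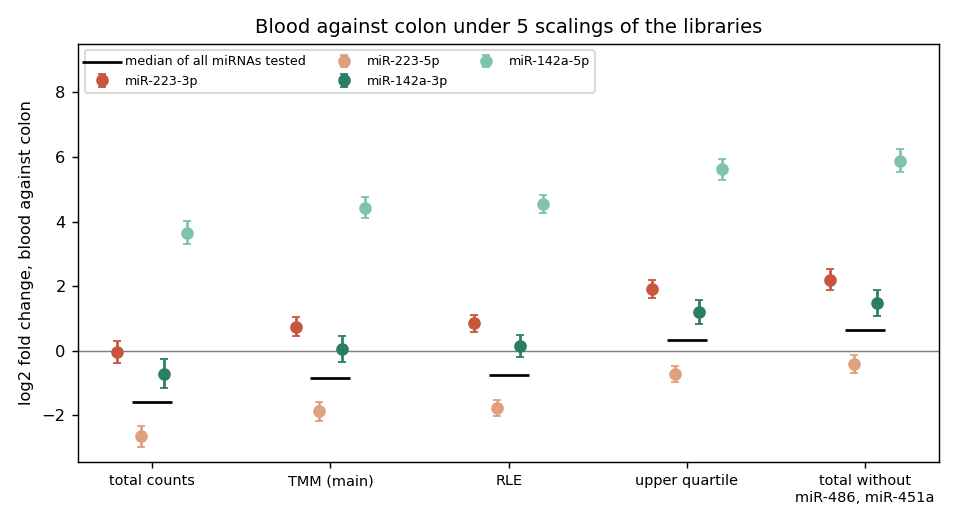
Log2 fold change of blood against colon (vertical axis) of each arm under 5 ways of scaling the 12 libraries (horizontal axis); points are the fitted values with their standard errors and black dashes the median of all miRNAs tested. A scaling shifts all miRNAs together, so the order of the arms is fixed by construction and what changes is their place relative to 0: miR-223-3p runs from -0.039 to 2.21 and miR-223-5p from -2.64 to -0.41.

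Profiles over the 12 libraries were compared after centring each miRNA on its mean in the tissue, by the root mean square difference of log2(CPM + 1) among 363 other miRNAs. These profiles hold the DSS difference and are given as a description. The miRNA nearest to miR-223-5p was miR-142a-3p (0.39), and the nearest to miR-142a-3p was miR-223-5p, so the minor arms in blood of the 2 hairpins paired with each other. After it came miR-363-3p and miR-212-5p (0.41 each) for miR-223-5p, and miR-21a-5p and miR-363-3p (0.46 each) for miR-142a-3p. The partner arm from the same hairpin was farther. For miR-223-5p it was the 148th nearest of 363, at 0.76, and for miR-142a-3p the 11th nearest, at 0.59.

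The nearest profile to both miR-223-3p (0.50) and miR-142a-5p (0.25) was miR-155-5p. Next were miR-342-3p and miR-142a-5p (0.53 each) for miR-223-3p, and miR-150-3p (0.28) and miR-296-3p (0.29) for miR-142a-5p. The median difference from all miRNAs compared was 0.89 for miR-223-3p and 0.63 for miR-142a-5p.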

How the data were processed

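Small RNA of colon and blood from 6 mice was sequenced. The authors trimmed reads with Flexbar, collapsed them and quantified them against miRBase with miRDeep2, and deposited raw counts per mature miRNA. They also deposited a normalized signal per tissue, the counts divided by DESeq2 size factors, from which 100% of values gave whole reads (within 0.01 reads) equal to the deposited counts, so a count test on them is the same test. With identical sequences counted once, libraries hold 12576492 to 19987322 counts.

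Counts were tested with edgeR 4.0.16 (R 4.3.3; filterByExpr, TMM factors, quasi-likelihood test, Benjamini-Hochberg adjustment over all miRNAs tested), and a miRNA was called at an adjusted p no higher than 0.05 with a fold change above 1.5. DSS and control were fitted within each tissue; blood and colon over 12 libraries. Arm ratios were log2 of 3p over 5p counts, each plus 0.5, for hairpins with a mean of at least 10 counts per arm in each tissue used (both tissues for blood against colon), tested by exact permutation (scipy 1.17.1). The scripts were tested on simulated data.

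The 4 arms are the named miRNAs, with the 3 nearest profiles each and the marker lists. The arms and lists were chosen with earlier results of these data known, so values for DSS against control carry no p. Colon and blood of 1 mouse share its number and animal. Their deviations from group means correlated at -0.305 to 0.149 per mouse over 364 miRNAs. Alternatives were DESeq2 1.42.0, limma 3.58.1, other scalings and filters, identical sequences counted once, the disease state fields, blocks and leaving out mice. Each mouse is 1 replicate. Promoters and predicted targets were not analysed here.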

Additional observations from a re-analysis of the deposited data

Results flagged for a closer look

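The level of miR-223-5p, scaled within the tissue, was looked at again because DSS mice lay on opposite sides of the control mean in the 2 tissues. In colon every DSS mouse was above the control mean, with a log2 fold change of 1.82. In blood every DSS mouse was below it, with a log2 fold change of -0.80, though the groups overlapped there. The blood result depended on the scaling. Scaled over all 12 libraries, DSS mouse 1 (8.75 CPM) was above every control blood (5.95 to 7.92 CPM). The log2 fold change in blood was -0.47 with total counts alone and -0.41 with all 12 libraries in 1 fit. The difference between the tissues was not tested, since the arm was chosen with these values known.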

How the results depend on the processing

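The DESeq2 and limma fits changed scaling and the miRNAs tested along with the test, and the replicate block the miRNAs tested. For colon, 2 arms were called, of 55 miRNAs; 1 was called with RLE factors (of 16), upper-quartile factors (of 8) or limma (of 4), 3 with DESeq2 (of 74), 4 with no filter (of 76), 0 with all 12 libraries in 1 fit or under the disease state fields (of 0 each), and 0 to 3 when a mouse was left out. For blood, 0 arms were called; 1 was called with no filter or with DESeq2, and 0 with any mouse left out. Under the disease state fields, the log2 fold changes in colon reversed to -1.29 (miR-223-3p), -0.77 (miR-223-5p), -1.11 (miR-142a-3p) and -0.93 (miR-142a-5p), and in blood to 0.98 (miR-223-5p), 0.90 (miR-142a-3p) and -0.17 (miR-142a-5p), with miR-223-3p at 0.13. The arm ratio then changed by -1.16 (miR-223, blood), 0.033 (miR-142a, colon) and 1.28 (miR-142a, blood).

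For blood against colon, miR-223-3p (0.74) was -0.039 with total counts alone, 0.50 with no filter, 0.70 with the replicate block and 0.72 in DSS mice alone, and 0.34 to 1.12 with a mouse left out; its call was lost under the first 4 of these and without mouse 1, 4, 7 or 8. The value of miR-223-5p was -0.41 without miR-486 and miR-451a (not called), and -2.27 to -1.61 with a mouse left out. The value of miR-142a-3p (0.06) was 1.20 with upper-quartile factors, -0.71 with total counts alone, 1.49 without miR-486 and miR-451a, -0.19 with no filter, -0.11 with the replicate block, 0.95 in control mice alone, -0.76 in DSS mice alone, and -0.66 to 0.57 with a mouse left out, called higher with upper-quartile factors, without miR-486 and miR-451a and in control mice, and lower without mouse 1; miR-142a-5p was 4.12 to 4.77 and 2 to 3 arms were called with a mouse left out, and over the other alternatives 3.66 to 5.89 and 2 to 4. The arm ratio difference was 2.75 and -4.52 with the block (pairing within mice), where neither these nor any other hairpin passed the adjusted threshold. It was 1.65 and -3.71 in control or 3.85 and -5.34 in DSS mice alone. With a mouse left out it was 2.48 to 3.10 for miR-223 and -4.77 to -4.21 for miR-142a. The DSS difference in the ratio was then -0.29 to 0.23 and 0.38 to 0.76 in colon, and 1.90 to 2.38 and -1.68 to -0.76 in blood, for miR-223 and miR-142a. Among the levels of the 4 arms, the replicate block changed no call but that of miR-223-3p, and the cause of these changes was not tested. Depth limits miR-223-5p in blood most, with 39 to 209 counts per library.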
